A study of Xenopus laevis with 2 samples.

Results

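Integrins are receptors, each made of an alpha and a beta subunit, that tie the matrix outside a cell to actin filaments inside it. At the membrane they gather focal adhesions, in which talin and kindlins bind the beta tail. The protein ILK with PINCH and parvin links this tail to actin, and FAK and Src-family kinases signal from it. In the heart these proteins hold muscle cells to their matrix, and the integrin alpha 4 subunit helps to attach the epicardium, the outer cell layer, in mice.

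The transcripts of this machinery were examined in hearts of the frog Xenopus laevis by RNA sequencing. Members were chosen by gene symbol, from patterns that cover integrin subunits, talins, kindlins, vinculin, paxillin, ILK, PINCH, parvins, zyxin, FAK, p130Cas, Ena/VASP proteins, filamins, tensins, Src, Fyn and Csk. The rule found 34 of 8879 transcript rows, from 29 symbols, and it found no member for vinculin, filamins, tensins or Csk. Other families were covered in part. Talins had only tln2, PINCH only lims1, and parvins only parvb and parvg. Integrin subunits had rows only for itga4, itgav, itga5, itga2b.1, itga2b.2, itgb1, itgb2, itgb3 and itgb5. All 34 members had at least 20 reads over both libraries, as did 8132 of all rows. A total of 10 rows were integrin subunits and 24 were other members. Where a gene had a row for each of its paired copies (homeologs), they are called L and S as a name table of assembly version 10.1 gives them.

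The samples were 2 libraries of polyadenylated RNA, 1 per group, from tadpoles at stage 44 to 45. Embryos of the control group had been injected with Control-MO and those of the other group with Tcf21-MO, a morpholino (a synthetic antisense oligomer) against the epicardial transcription factor Tcf21. Injection was at fertilization in both groups, and each library pooled 70 to 100 hearts. The stated temperature was 16 to 23 °C for both groups. The control hearts were siblings that also carried a morpholino. The comparison asked how heart transcripts differed between these groups.

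Read totals were 17636925 (Control-MO) and 17767221 (Tcf21-MO). With 1 library per group no difference has a replicate check, no test was made, and every ratio compares these libraries, not the conditions. Ratios are Tcf21-MO over Control-MO after scaling to library size, each followed by its 95% interval, which covers counting error only. A row was called if the difference reached 2-fold and the interval left out 1. Levels are given in CPM, reads scaled to library size, or in CPM per kb of the deposited transcript length where genes are compared. The tcf21 transcript had 1266 and 3738 reads, and the labels do not say how the morpholino blocks its target, so this does not check the label. Of 16 cardiomyocyte markers, 13 had a row and none was at 0 reads in either library, with 68300 and 49300 CPM in all. Heart muscle markers were thus present in both libraries. In pooled hearts, fewer cells of a type and less RNA per cell cannot be told apart.

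The alpha 4, alpha v, alpha 5, beta 1, beta 2 and beta 5 integrin rows had higher levels in the Tcf21-MO library. The alpha IIb and beta 3 rows, for subunits known from blood platelets, had ratios from 0.582 to 0.968. The highest of these, for the more abundant alpha IIb row itga2b.2, had an interval that included 1. The cytoplasmic complex of ILK, PINCH and beta-parvin had nearly the same levels in both libraries. Of the 34 members 2 were called higher, itga4 and itgbl1, against 2.67% of all transcripts, and 0 were called lower, against 2.40%. At 1.5-fold, 9 members were higher and 2 lower, where 7.82% and 6.67% of all transcripts were. Intervals excluded 1 upward for 16 members and downward for 10, against 29.8% and 28.4% of all transcripts, and 8 members passed neither way. These shares depend on depth, which was not matched. The median was 2514.5 reads for members and 1064 for all transcripts. The median log2 ratio of the members was 0.07 (order-statistic interval -0.05 to 0.54), and that of all transcripts was 0.00. It was 0.63 over the 10 subunit rows and 0.01 over the other 24. With 10 rows, the interval of the first median ran from -0.18 to 0.91. These intervals of medians describe the spread between rows, with homeologs treated as independent, and not any spread between samples.

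**Figure D1:**
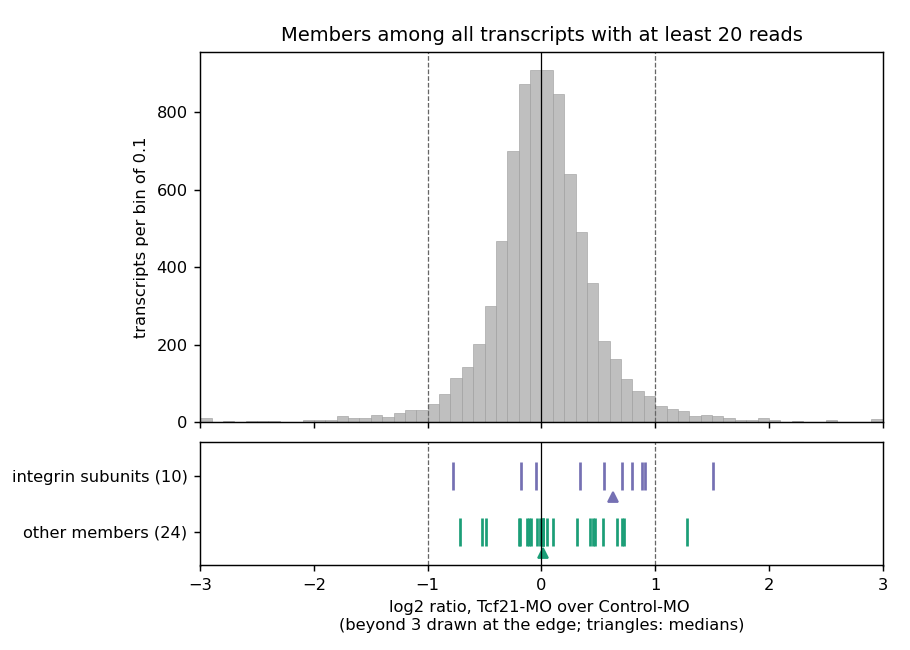
Upper panel, number of transcripts with at least 20 reads by log2 ratio of Tcf21-MO over Control-MO, in bins of 0.1. Lower panel, each member as a tick on the same axis, with triangles for the medians of the 10 integrin subunits (0.63) and the 24 other members (0.01), and dashed lines at 2-fold.

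Among the alpha subunits with a row, itga4 stood apart. Its product pairs with beta 1 in a receptor for fibronectin and for VCAM-1 on other cells. The itga4 row had 1269 control reads and 3561 Tcf21-MO reads, the order in which read pairs are given from here on. Its ratio was 2.86 (2.68 to 3.05), and 0.935% of all transcripts had a higher ratio. The table held only the S homeolog of this gene. Epicardium markers are given beside it. Of 15 listed, 9 had a row, all with at least 20 reads. Of these 9 markers, 4 were called higher and 0 lower, with a median log2 ratio of 0.99, and none was at 0. The called markers were lhx9, wt1, krt18 and tcf21 itself, the target of the morpholino. The markers sema3d, at 0.918 (0.789 to 1.07), and upk1b, at 0.89 (0.738 to 1.07), had intervals that included 1. Summed levels were 1180 and 2360 CPM, of which the keratin genes krt8 and krt18, also expressed in other epithelia, made up most. The part of epicardial cell number in the itga4 ratio was not tested.

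The alpha v subunit, which pairs with beta 1, beta 3 and beta 5 and binds vitronectin and fibronectin, was higher by less. The itgav row had 1357 and 2325 reads, a ratio of 1.74 (1.63 to 1.87). The alpha 5 subunit forms the main fibronectin receptor with beta 1. The itga5 row had 960 and 1193 reads, a ratio of 1.27 (1.16 to 1.38). Both were above 1 beyond counting error and under 2-fold.

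The alpha IIb subunit pairs with beta 3 in the fibrinogen receptor of mammalian platelets, whose counterparts in frogs are thrombocytes. The table held rows for 2 alpha IIb genes, and they differed from each other. Each gene had a single row, the S homeolog for itga2b.1 and the L homeolog for itga2b.2. Ratios between them thus compare single homeologs. The itga2b.2 row had 3236 and 3076 reads, a ratio of 0.968 (0.921 to 1.02), so no difference was detectable at this depth. The itga2b.1 row had 394 and 225 reads, 1.72-fold lower (1.46 to 2.03). Within a library, which needs no scaling between libraries, the level of itga2b.1 per kb was 0.134 (0.120 to 0.148) of that of itga2b.2 in the control and 0.0802 (0.0697 to 0.0919) in the Tcf21-MO library. Reads that match both genes could have been split between them.

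The beta 1 subunit, the partner of most alpha subunits, was by far the most abundant of the subunits with a row. The itgb1.L row had 10625 and 19657 reads, a ratio of 1.88 (1.84 to 1.93). The itgb1.S row had 6714 and 9672 reads, a ratio of 1.47 (1.42 to 1.51). Both homeologs were higher in the Tcf21-MO library, with intervals that did not overlap, and the level of the L copy over the S copy went from 1.13 (1.10 to 1.17) to 1.45 (1.42 to 1.49). Summed over both, itgb1 had levels of 277 and 468 CPM per kb, a ratio of 1.72 (1.69 to 1.76).

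The other beta subunits had lower levels and went both ways. The itgb5 row, for a partner of alpha v, had 990 and 1591 reads and a ratio of 1.64 (1.51 to 1.77). The itgb3 row had 1330 and 1156 reads, 1.13-fold lower (1.04 to 1.22). The beta 2 subunit is restricted to leukocytes in mammals, and its row had only 105 and 190 reads. Its ratio was 1.84 (1.44 to 2.36), the widest interval among the subunits.

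Values for blood cells stand beside these subunits. Of 18 listed thrombocyte markers, 7 had a row, all with at least 20 reads. Of these, 2 were called lower and 0 higher, with a median log2 ratio of -0.79. They were gp9, a subunit of the platelet receptor for von Willebrand factor, with 107 and 48 reads, and gfi1b, a transcription factor gene of red cell and platelet precursors, with 426 and 52 reads. Of the 7, 5 lay below 0 and 2 above. Those above were plek, also in the leukocyte list, at 1.40 (1.07 to 1.84) and thbs1 at 1.11 (1.03 to 1.19). The median was the value of nfe2, with 1329 and 755 reads. The list summed to 280 and 224 CPM. Of these, fli1, also in the endothelial list, had 83.1 and 75.4 CPM. The gene thbs1, also among the matrix ligands below, had 80.0 and 88.4 CPM. Of 28 listed leukocyte markers, 17 had a row, all with at least 20 reads. Of these 17, 5 were called higher and 0 lower, with a median of 0.50 and sums of 370 and 585 CPM. Within these sums, mpo had 132 and 171 CPM, and mmp9 had 71.1 and 171 CPM. The 3 leukocyte markers with the largest ratios were was, ncf4 and mmp9, with ratios of 4.90 (4.09 to 5.95), 2.71 (1.55 to 5.13) and 2.40 (2.25 to 2.57). None of the markers in either list was at 0 in either library. The part of these cells in the ratios of itga2b.1, itga2b.2, itgb3 and itgb2 was not tested.

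Among the 5 alpha subunit rows found, the order by level differed between the libraries. In the control it was itga2b.2 (42.3 CPM per kb), itgav (21.1), itga4 (16.8), itga5 (10.4) and itga2b.1 (5.64). In the Tcf21-MO library it was itga4 (48.1 CPM per kb), itga2b.2 (40.9), itgav (36.8), itga5 (13.2) and itga2b.1 (3.28). Every pair of neighbours in both orders differed beyond counting error. Other alpha subunits had no row, so their places are unknown. Each of these 5 genes had a single row, for 1 homeolog, so the orders compare rows and not whole genes. The deposited transcript lengths were taken as exact here and in the ratios that follow, and an error in them could change the order of close neighbours. In the Tcf21-MO library the level of itga2b.2 over itgav was 1.11 (1.05 to 1.17). The level of itga4 over itga2b.2 was 0.398 (0.372 to 0.425) in the control and 1.17 (1.12 to 1.23) in the Tcf21-MO library, and that over itgav was 0.797 (0.738 to 0.861) and 1.31 (1.24 to 1.38). Over itga5, it was 1.61 (1.48 to 1.76) and 3.64 (3.41 to 3.89).

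Subunits that share the alpha v partner also changed places. In the control, itgb3 stood above itgb5, with a level of itgb5 over itgb3 of 0.797 (0.733 to 0.866). In the Tcf21-MO library that ratio was 1.47 (1.37 to 1.59). The level of itgav over itgb3 was 1.02 (0.942 to 1.10) in the control, which includes equal levels, and 2.00 (1.87 to 2.15) in the Tcf21-MO library. By contrast, itga2b.2 over itgb3 was 2.04 (1.91 to 2.17) and 2.23 (2.08 to 2.39), with intervals that overlapped. The levels of transcripts do not show how much of each receptor was on a cell.

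**Figure D2:**
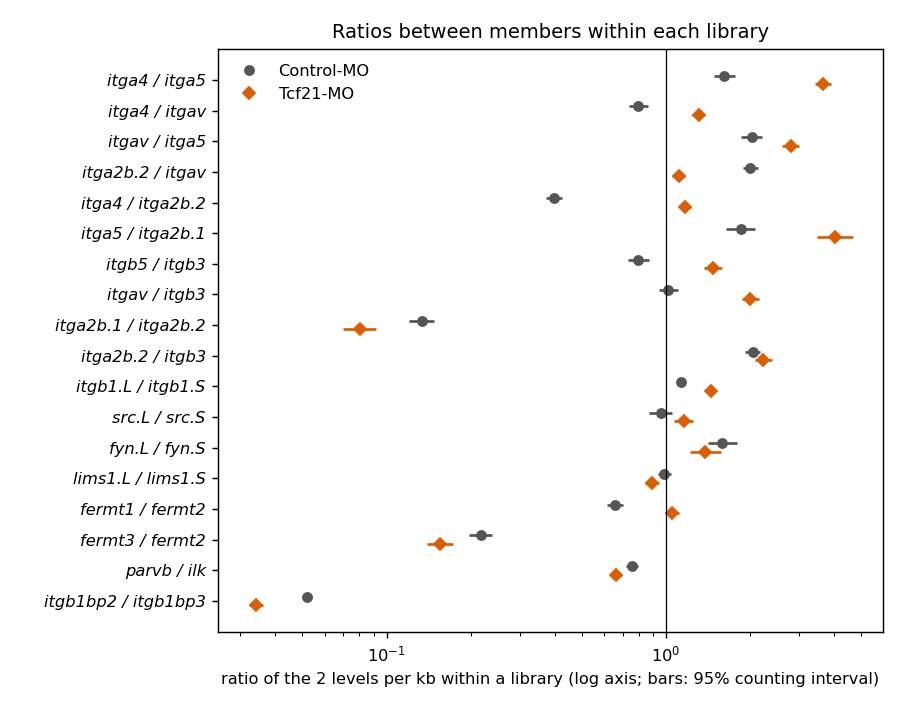
Level per kb of the first gene over that of the second within each library, on a log axis, for pairs of single rows, with Control-MO as grey circles, Tcf21-MO as orange diamonds and 95% counting intervals as bars. The ratios of itga4 to itgav and of itgb5 to itgb3 lie below 1 in the control and above 1 in the Tcf21-MO library.

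The 3 integrin-related rows are not subunits, although the symbol pattern took them in. The itgbl1 gene encodes a secreted protein with repeats like those of beta subunits. Its row had 216 and 514 reads, a ratio of 2.42 (2.06 to 2.85), and 1.55% of all transcripts had a higher ratio. The itgb1bp2 gene encodes melusin, a protein of striated muscle that binds the beta 1 tail. Its row had 2164 and 1290 reads, 1.65-fold lower (1.54 to 1.77). The row listed as itgb1bp3 is called nmrk2, a nicotinamide riboside kinase of muscle, in the name table. It had 22170 and 20191 reads, or 1280 and 1190 CPM per kb, the highest level of all members in both libraries. It was 1.08-fold lower (1.06 to 1.10).

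Cardiomyocyte markers are given beside melusin. Of 13 such markers, 0 were called higher and 0 lower, with a median log2 ratio of -0.35, and 10 of the 13 lay below 0. Their ratios ran from 0.625 (0.592 to 0.66) for the transcription factor gene nkx2-5 to 1.58 (1.54 to 1.63) for the natriuretic peptide gene nppb, and that of itgb1bp2 was 0.607 (0.566 to 0.651). The part of muscle cell number in the itgb1bp2 ratio was not tested.

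**Figure D3:**
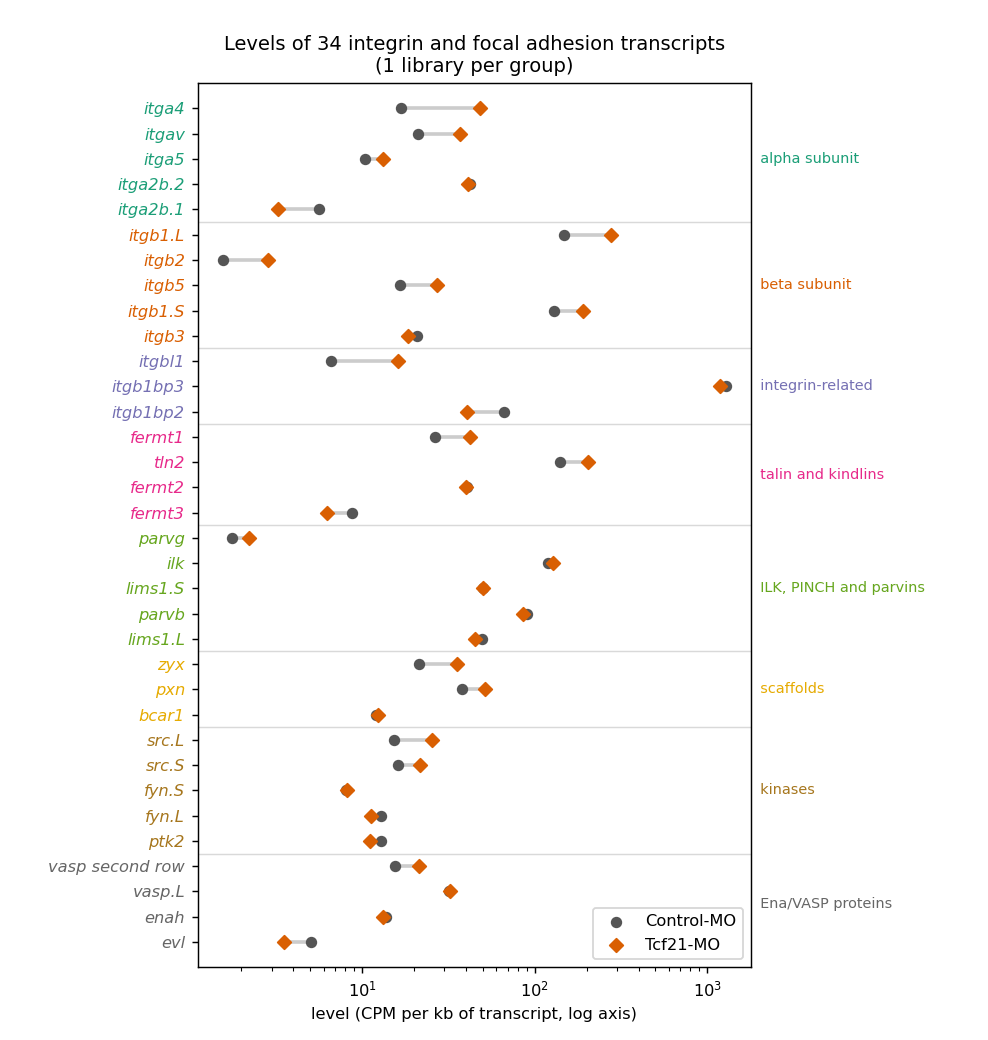
Level of each of the 34 members in CPM per kb of transcript, on a log axis, grouped by role, with Control-MO as grey circles and Tcf21-MO as orange diamonds joined by a line. The beta 1 rows, tln2, ilk and itgb1bp3 lie above 100 in both libraries, and the longest joining line is that of itga4.

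Talins and kindlins bind the beta tail and switch integrins to their active form. The tln2 row had 4106 and 5851 reads, a ratio of 1.45 (1.39 to 1.51). Its deposited length of 1647 bp is far short of a full talin message, so its level per kb is uncertain. The 3 kindlins differed from each other. The fermt1 row, for a kindlin of epithelia in mammals, had 1204 and 1873 reads and a ratio of 1.58 (1.47 to 1.7). The fermt2 row, for the kindlin of most tissues, had 3134 and 3052 reads and a ratio of 0.992 (0.943 to 1.04). The fermt3 row, for the kindlin of blood cells in mammals, had 553 and 386 reads, 1.41-fold lower (1.23 to 1.61).

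Within the libraries, fermt1 had 0.658 (0.615 to 0.704) of the level of fermt2 in the control and 1.05 (0.992 to 1.11) in the Tcf21-MO library. The level of fermt3 over fermt2 went from 0.217 (0.198 to 0.238) to 0.156 (0.14 to 0.173). Beside fermt3 stand the medians of -0.79 for thrombocyte and 0.50 for leukocyte markers given above. Beside fermt1 stand 14 epidermal and surface epithelial markers, 4 of them called lower and 0 higher, with a median log2 ratio of -0.14. Of these, 7 lay above 0 and 7 below, and the list summed to 2460 and 3190 CPM. The gene krt19 alone made up 1030 and 1880 CPM of these sums. The rows listed as krt14, krt5 and otog are called ouro2.L, krt7.L and otogl2.L in the name table. The part of these cells in the kindlin ratios was not tested.

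The complex of ILK, PINCH and parvin joins the beta tail to actin. Its rows had nearly equal levels in the libraries. The ilk row had 4452 and 4670 reads, a ratio of 1.07 (1.03 to 1.11). The PINCH gene lims1 had ratios of 1.01 (0.946 to 1.07) for the S row, with 1970 and 1950 reads, and 0.912 (0.867 to 0.958) for the L row, with 3301 and 2955 reads. The parvb row, for a parvin of heart and skeletal muscle in mammals, had 2724 and 2514 reads and a ratio of 0.94 (0.89 to 0.993). The parvin of blood cells, parvg, had 37 and 45 reads, and its ratio of 1.24 (0.784 to 1.97) leaves its direction undetected at this depth.

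For the 4 abundant rows of this complex, depth was not the limit. Their intervals spanned values from 0.867 to 1.11, while those of both beta 1 rows began at 1.42 or above. In order of level per kb, ilk (120 and 128 CPM per kb) stood above lims1 (99.2 and 95.2, both homeologs) and parvb (90.7 and 85.3) in both libraries.

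**Figure D4:**
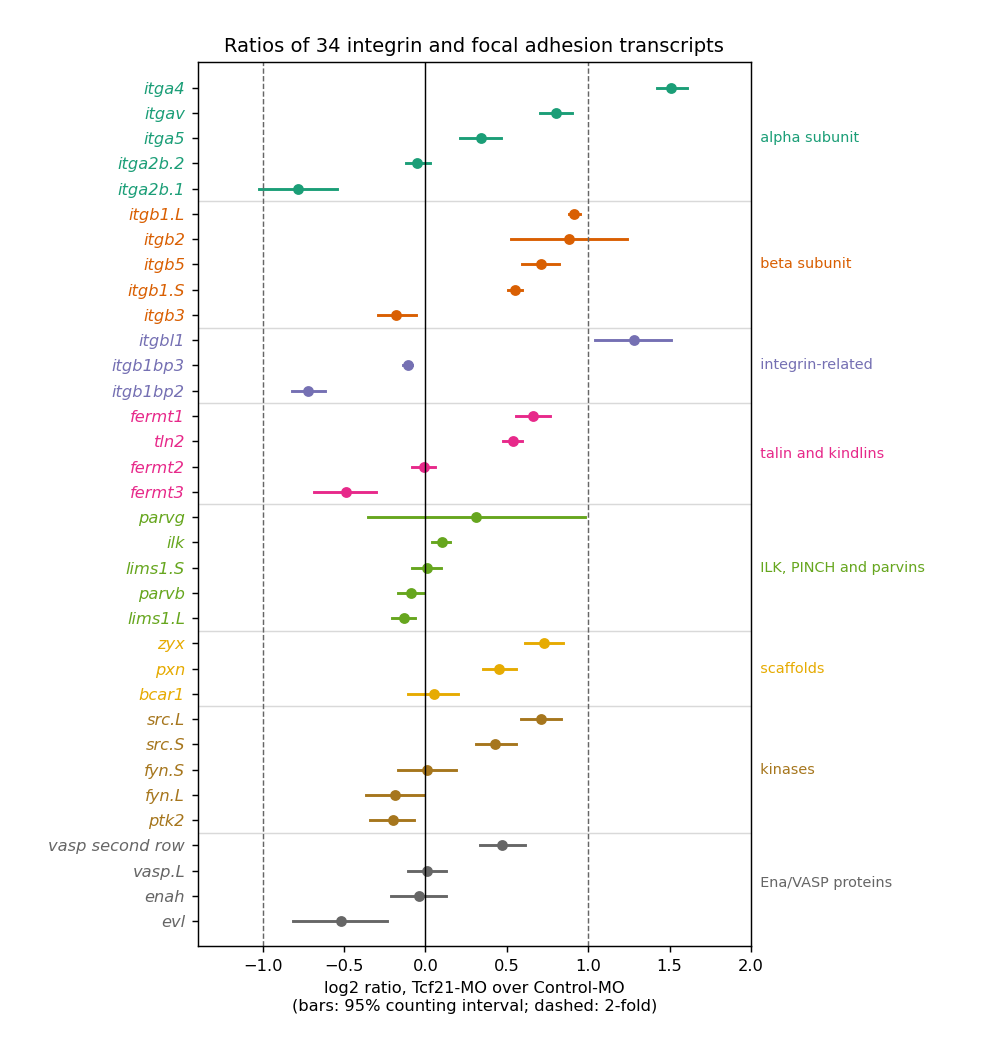
Log2 ratio of Tcf21-MO over Control-MO for each of the 34 members, grouped by role, with 95% counting intervals as bars and dashed lines at 2-fold. Only itga4 and itgbl1 have a point beyond 2-fold, and the abundant ILK, PINCH and parvb rows lie close to 0.

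The scaffold proteins of adhesions had ratios above 1, with an interval that included 1 for bcar1. The zyx row, for a LIM protein that gathers actin regulators at adhesions under tension, had 967 and 1576 reads and a ratio of 1.66 (1.53 to 1.80). The pxn row, for the adaptor paxillin, had 1461 and 1965 reads and a ratio of 1.37 (1.28 to 1.47). The bcar1 row, for the Src and FAK substrate p130Cas, had 693 and 702 reads and a ratio of 1.03 (0.928 to 1.15).

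The kinases did not go one way. FAK, encoded by ptk2, had 972 and 829 reads, 1.15-fold lower (1.05 to 1.26). Both src rows were higher, src.L with 882 and 1418 reads and a ratio of 1.64 (1.5 to 1.78), and src.S with 892 and 1182 reads and a ratio of 1.35 (1.24 to 1.47). The related kinase gene fyn had ratios of 1.01 (0.888 to 1.14) for the S row, with 507 and 501 reads, and 0.877 (0.775 to 0.992) for the L row, with 563 and 485 reads. Summed over homeologs, the level of src over that of fyn was 1.51 for Control-MO and 2.42 for Tcf21-MO.

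Ena/VASP proteins lengthen actin filaments at adhesions, and their rows also differed. The 2 vasp rows had ratios of 1.01 (0.93 to 1.09) for the L row, with 1196 and 1185 reads, and 1.38 (1.26 to 1.53) for the other, with 706 and 960 reads, which the name table did not hold. The enah row had 576 and 550 reads, a ratio of 0.973 (0.864 to 1.09). The evl row had 249 and 170 reads, 1.44-fold lower (1.18 to 1.76). It had the lowest level per kb of the family in both libraries.

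A total of 5 members had 2 rows under the same symbol. For itgb1, src and vasp the intervals of the rows did not overlap, and for fyn and lims1 they did. The share of such pairs over all transcripts was not computed, so this is not given as a trait of the members. How reads that match both rows of a symbol were counted is not given in the sources used here.

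Other genes of integrin adhesion were read from 5 lists, which held 125 genes with at least 20 reads. Of these, 6 (4.80%) were called higher and 1 (0.8%) lower, beside the 2.67% and 2.40% of all transcripts, and their median log2 ratio was 0.15. Some genes of these lists also stand among the marker lists.

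Of 49 listed symbols for matrix proteins that integrins bind, 19 matched a row by deposited symbol, and most of these had higher levels. The symbols cyr61 and ctgf matched, while ccn1 and ccn2, other names of the same genes, did not. Collagen IV and all listed laminin chains but lamb2 were also among the symbols without a row. Of the 19, 3 were called higher and 0 lower. On the log2 scale 18 lay above 0, as did 4100 of all 8132 transcripts, and the median was 0.35. The called members were the chains of collagen I, col1a2 at 2.57 (2.52 to 2.61) and col1a1 at 2.12 (2.08 to 2.16), and the fibrinogen chain fgb, with 53 and 149 reads and a ratio of 2.85 (2.08 to 4.0). Fibronectin, the ligand that alpha 4, alpha 5 and alpha v share, had 6380 and 7991 reads in the row fn1, a ratio of 1.28 (1.23 to 1.32). Vitronectin, a ligand of alpha v, had only 30 and 19 reads in the row vtn, and its ratio of 0.651 (0.343 to 1.18) included 1. These 2 ligands were named after their values were seen.

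Of the ligands on cell surfaces, 4 had at least 20 reads and 0 were called either way, with a median of 0.22. The highest was adam9, for a metalloprotease with an integrin-binding domain, at 1.59 (1.40 to 1.81), and the lowest was alcam, for an adhesion molecule of the immunoglobulin family, at 0.807 (0.774 to 0.841). The list found no row for VCAM-1, the cell-bound ligand of alpha 4 beta 1.

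Membrane partners of integrins included tetraspanins, syndecans and CD98. Of 17, 1 was called higher and 0 lower, 14 lay above 0, and the median was 0.45. The called member was sdc3, for a syndecan, with 433 and 869 reads and a ratio of 2.04 (1.82 to 2.30).

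Among 30 other actin linkers and LIM proteins of adhesions, 0 were called higher and 1 lower, with a median of 0.16. That member was nexn, for the muscle actin-binding protein nexilin, with 5360 and 2322 reads, 2.27-fold lower (2.16 to 2.38). Among 55 adaptors and signalling genes of adhesions, 2 were called higher and 0 lower, with a median of 0.08. They were pak1, a kinase activated by Rac and Cdc42, with 113 and 242 reads and a ratio of 2.18 (1.74 to 2.75), and lyn, a Src-family kinase of blood cells, with 40 and 85 reads and a ratio of 2.15 (1.47 to 3.24).

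**Figure D5:**
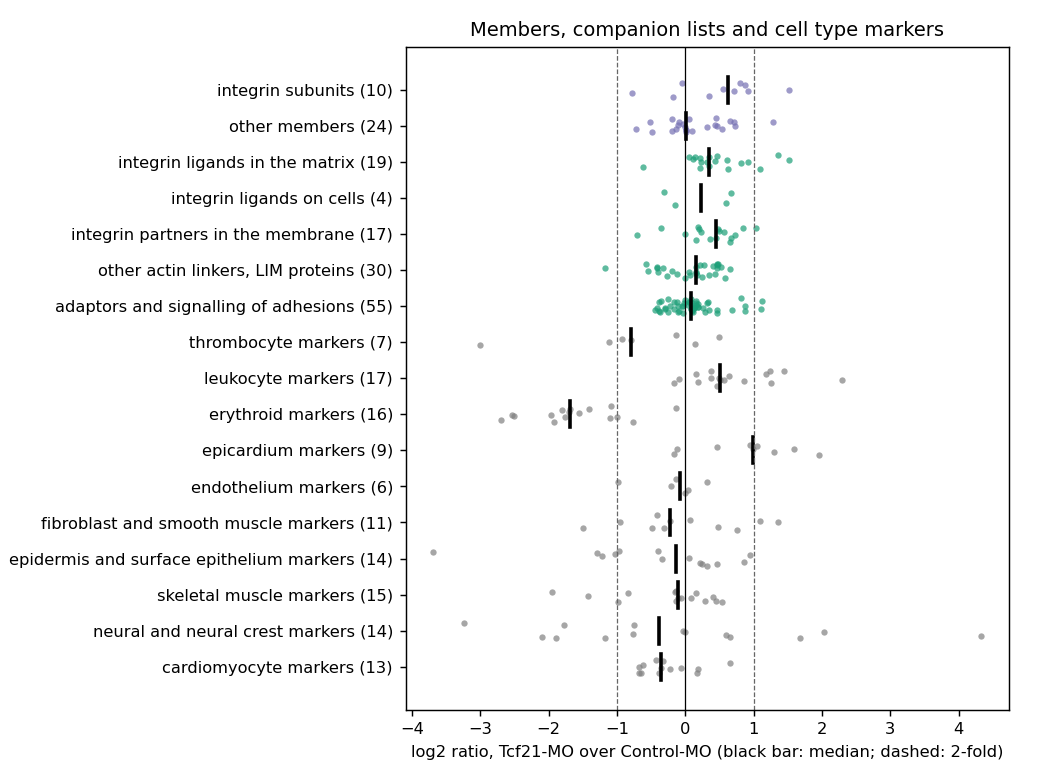
Log2 ratio of Tcf21-MO over Control-MO for each gene with at least 20 reads, for the members (purple), the 5 lists of other integrin adhesion genes (green) and the cell type marker lists (grey), with black bars for medians, dashed lines at 2-fold and random vertical scatter within a list. Medians were 0.63 for the subunits, 0.99 for epicardium markers, -0.79 for thrombocyte markers and -0.35 for cardiomyocyte markers.

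Of 20 listed endothelial markers, 6 had a row, and 0 of these were called either way, with a median of -0.08. Of 11 fibroblast and smooth muscle markers 2 were called higher and 1 lower, with a median of -0.22. The 2 were col1a2 and col1a1, the same rows as among the matrix proteins above. The 1 was acta2, 2.83-fold lower (2.74 to 2.92). The rows listed as cnn1 and, for skeletal muscle, pvalb are called cnn2.L and ocm3.S in the name table. The erythroid list held 16 genes, 13 of them called lower and 0 higher, with a median of -1.69. Skeletal muscle markers had 2 of 15 called lower and 0 higher, and neural markers 3 of 14 called higher and 5 lower. By transcript length, the median log2 ratio was -0.04 for all transcripts of at least 3000 bp and 0.02 for shorter ones, beside 0.05 and 0.10 for members on either side of that length.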

How the data were processed

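Polyadenylated RNA was measured in 2 libraries, grouped by the label that names the injected morpholino, each from 1 µg of total RNA per the labels. The authors deposited raw read counts for 8879 RefSeq transcripts, with a symbol and a length in bp (another kind of value) per the file headers. Tools listed in the submitters' processing notes, without roles, are SAMtools 0.1.18.0, Bowtie2 2.0.0.6 and CASAVA 1.7. Not given in the sources used here are the build, the counting rule and strand use, so values of homeologs, close paralogs and overlapping genes are uncertain. Normalized values and fold changes by the authors were left aside.

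Library sizes were adjusted by TMM in R 4.3.3 with edgeR 4.0.16, with factors of 1.013 for Control-MO and 0.9873 for Tcf21-MO. Ratios were computed with 0.5 counts added (Python 3.11.15 with SciPy 1.17.1, pandas 2.3.3 and NumPy 2.4.6). Each has a 95% exact binomial interval (Clopper-Pearson) given the sum of both counts. It covers counting error only, and may be too narrow even for that, since reads without molecular identifiers are not independent molecules. Rows with fewer than 20 reads over both libraries were not called. A count of 0 allows 3 counts, or 0.168 and 0.171 CPM. No p-value was computed. Ratios between members within a library used exact intervals of the same kind, and levels summed over homeologs have none.

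The name table held 30 of the 34 member accessions and was used for names only. In lists, the row with the most reads stood for a gene, and listed symbols without a row were left out. All integrin subunits and other members are named. Called members of each list of other adhesion genes are named, or the highest and lowest with at least 50 reads where none was called. The members and lists were chosen with earlier results of these data known. The procedure was run on simulated counts drawn with counting error only, which cannot check it against spread between libraries. Alternatives covered scaling (with DESeq2 1.42.0 size factors in 1), the read floor, the counts added, the threshold, summed homeologs, name table symbols and transcript length.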

Additional observations from a re-analysis of the deposited data

How the results depend on the processing

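No paired analysis was possible because there was 1 library per group, and no library could be left out. Removal of the length trend and the 1.5-fold counts under other scalings were chosen after seeing the data. Across the 11 alternatives itga4 had a log2 ratio between 1.48 and 1.56 and itgbl1 one between 1.24 and 1.29. Only other scalings, more counts added and removal of the length trend can change the ratio of a single row. The other alternatives leave it as it was, so they do not check these values. Of the 34 members, 4 had a ratio on both sides of 1 across the alternatives, namely fermt2, fyn.S, lims1.S and vasp.L, whose intervals all included 1. The counts of 2 members higher and 0 lower changed with the threshold only, to 9 and 2 at 1.5-fold and to 0 and 0 at 4-fold. The 1.5-fold counts were the same under all 4 scalings. Of 360 member values, many of which could not move for that reason, 4 moved beyond their interval. They were those of itgb1.L and itgb1bp3 under total count scaling and with the length trend removed. For all transcripts the counts were 636 higher and 542 lower at 1.5-fold, and 33 and 34 at 4-fold. With a floor of 100 reads, 152 of 7477 transcripts were higher and 106 lower, beside 2 and 0 of 33 members. For the lists of other adhesion genes, 21 were higher and 2 lower at 1.5-fold, 0 and 0 at 4-fold, and 2 lower with no floor, where vil1 with 14 and 4 reads joined nexn. The member median ran from 0.0332 (total count) to 0.148 (homeologs summed), within its interval, which reflects the spread between rows only. Depth limits parvg, itgb2 and evl most among the members.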
